A study of Mus musculus with 6 samples.

Results

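Cd14, Ly96, Myd88, Tirap, Ticam1, Ticam2, Irak1, Irak4, Traf6 and Map3k7 encode the co-receptors, adaptors and proximal kinases that act with the lipopolysaccharide receptor TLR4. The 10 genes were taken by symbol from the table of FPKM (counted fragments per kilobase of gene, scaled to the depth of the library) after its rows, whose columns had run together, were cut apart. All 10 of 10 were found among 35425 genes restored, and all 10 were among the 9800 genes that entered the test by averaging an FPKM of 1 or more. The libraries came from bone marrow-derived macrophages (BMDMs) of mice, cells grown from marrow with M-CSF and therefore a culture model of macrophages rather than macrophages taken from a tissue. The Ctrl group (3 libraries) was left without zoledronic acid and the ZA group (3 libraries) received zoledronic acid, a nitrogen-containing bisphosphonate used against bone loss, for 12 h. No library received lipopolysaccharide as far as the labels say, so the values describe the machinery in macrophages without added lipopolysaccharide. Whether zoledronic acid itself acted on TLR4 in the ZA libraries was not tested. The labels and methods give no genetic alteration, no dose for these libraries, and do not say whether the libraries of a group came from separate mice or cultures, so the p-values measure only the spread between these libraries, which may be technical.

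CD14 is a surface protein that hands lipopolysaccharide to the complex of TLR4 and MD-2, the small secreted protein encoded by Ly96 that holds the lipid in a pocket. At the plasma membrane the bridging adaptor TIRAP brings in MyD88, on which IRAK4 and IRAK1 assemble and from which TRAF6 and the kinase TAK1, encoded by Map3k7, activate NF-κB and the MAP kinases. From endosomes the adaptors TRAM (Ticam2) and TRIF (Ticam1) open the other arm, which leads to interferon genes.

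The libraries held between 41230600 and 42155808 counted fragments, so depth differed little between them. The 10 genes together took 0.0837, 0.0838 and 0.0834% of the fragments in Ctrl 1 to 3 and 0.0843, 0.0876 and 0.0890% in ZA 1 to 3. The macrophage label held for all libraries: 8 of 8 macrophage markers were measured, none under an FPKM of 1, with a summed FPKM of 23499 to 27414 in Ctrl and 24393 to 27867 in ZA, nearly all of it Lyz2. Markers of neutrophils and their progenitors summed to 32.5 to 47.5 in Ctrl and 29.4 to 34.4 in ZA, with the defining gene Ly6g at 0 in all libraries, and stromal markers to 16.8 to 30.1 and 15.3 to 21.8. Markers of T cells summed to 8.57 to 9.06 and 8.32 to 9.73, of B cells to 2.32 to 3.01 and 2.06 to 2.32, of dendritic cells to 0.292 to 0.347 and 0.307 to 0.459, and of erythroid cells to 0.380 to 2.63 and 0.777 to 1.82. The T cell sum was nearly all Cd4. The B cell sums of the groups barely separated, at 2.319 in the highest ZA library and 2.324 in the lowest Ctrl library. Cd79b, which made up most of that sum, overlapped between the groups. The ranges of the other sums overlapped, but within the neutrophil and progenitor list some genes separated, with ZA below Ctrl. These were Mpo (2.28 to 2.64 in Ctrl, 1.53 to 2.03 in ZA) and Elane (2.35 to 2.54, 1.70 to 2.06). Ngp did so by a narrow gap, at 3.588 in the lowest Ctrl and 3.583 in the highest ZA library. S100a8, S100a9, Camp and Ltf overlapped. Of all genes tested 6.76% had all ZA libraries below Ctrl. The part of these cells in the results was not tested.

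None of the 10 genes changed after 12 h of ZA by the test across all genes. With limma on log2(FPKM + 1) and Benjamini-Hochberg adjustment over the 9800 genes, the adjusted p of the 10 ranged from 0.332 to 0.917, where 0.367% of all genes tested passed an adjusted p of 0.05 (0.204% higher in ZA and 0.163% lower). At an unadjusted p under 0.05 there was 1 gene of 10, Cd14, against 12.3% of all genes. The ZA mean was the higher one for 6 of the 10 and the lower one for 4, and 56.9% of all genes tested had a log2 fold change above 0. The Ctrl and ZA libraries did not overlap for 2 of the 10, Cd14 and Ticam2, both with ZA above Ctrl, and 0 of the 10 had all ZA libraries below Ctrl. Over all genes tested 18.1% did not overlap, 11.4% with ZA above and 6.76% with ZA below, so the count of 2 lies near the background. The median log2 fold change of the 10 was 0.02, against 0.01 over all genes tested, and the median of its absolute size was 0.04 in both. In bulk RNA a lower level cannot be told apart from fewer cells that carry the transcript.

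**Figure D1:**
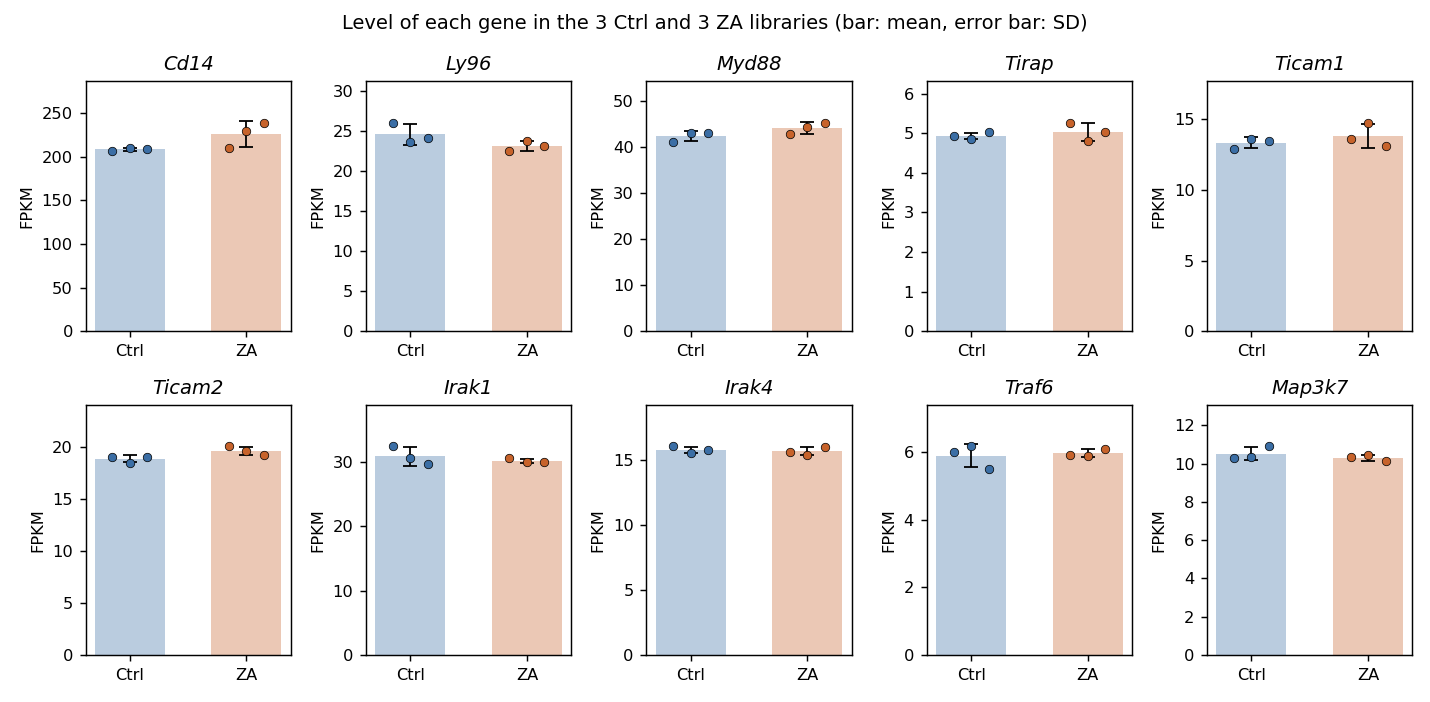
FPKM of each gene (vertical axis, from 0, with its own scale per panel) in the 3 Ctrl libraries (blue) and the 3 ZA libraries (orange). Bars are means, error bars are SD over 3 libraries and points are libraries in the order 1 to 3; only Cd14 and Ticam2 have all ZA points above all Ctrl points, and for Cd14 the lowest ZA point is level with the highest Ctrl point.

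The co-receptors showed the largest differences among the 10, in opposite directions, and neither passed the adjusted test. Cd14 had an FPKM of 206 in Ctrl 1, 210.1 in Ctrl 2 and 208 in Ctrl 3, and of 210.1 in ZA 1, 229 in ZA 2 and 239 in ZA 3. The Ctrl libraries lay close together, ZA 1 sat at the top of them, and the difference between the groups came from ZA 2 and ZA 3. The 3 Ctrl libraries averaged 208 ± 1.97 and the 3 ZA libraries 226 ± 14.7 (SD), 8.60% higher, with a log2 fold change of 0.12, a standard error of 0.04 and a 95% interval of 0.02 to 0.21. The limma p was 0.0255 before and 0.332 after Benjamini-Hochberg adjustment. Of the 8 macrophage markers, Adgre1 (log2 fold change 0.13, adjusted limma p 0.0785) and Csf1r (0.11, 0.0701) also lay above Ctrl in all ZA libraries, by a like amount. Cd68 did so by a narrow gap, at 1318 to 1340 in Ctrl and 1343 to 1351 in ZA. Itgam, Fcgr1, Mertk, Lyz2 and Mrc1 overlapped between the groups. The part of these markers in the Cd14 value was not tested. Without ZA 1 the log2 fold change of Cd14 was 0.17 with an adjusted limma p of 0.0518, and without ZA 3 it was 0.08 with an unadjusted limma p of 0.0813. The count of genes among the 10 with an unadjusted p under 0.05 was 0 without Ctrl 1, Ctrl 3, ZA 2 or ZA 3, and 2 without ZA 1, when Myd88 joined Cd14. Without Ctrl 2 the count was 1, but the gene was Ly96 in place of Cd14.

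Ly96, whose product MD-2 binds the lipid itself, had an FPKM of 26.0 in Ctrl 1, 23.6 in Ctrl 2 and 24.1 in Ctrl 3, and of 22.5 in ZA 1, 23.7 in ZA 2 and 23.1 in ZA 3. Ctrl 1 stood above the other libraries, while Ctrl 2 lay below ZA 2, so the groups overlapped. The 3 Ctrl libraries averaged 24.6 ± 1.28 and the 3 ZA libraries 23.1 ± 0.623 (SD), which gave a log2 fold change of -0.08 with a 95% interval of -0.18 to 0.01 and an adjusted limma p of 0.453. Without Ctrl 1 that log2 fold change was -0.04, and centring each library on its median gave Ly96 an unadjusted limma p of 0.0438.

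The receptor Tlr4, measured beside its co-receptors and not one of the 10, had an FPKM of 20.4, 19.8 and 20.3 in Ctrl and 19.8, 20.5 and 21.2 in ZA, with a log2 fold change of 0.02 and an adjusted limma p of 0.823. Ratios within a library do not depend on its depth, and these were chosen after the values were seen, so they carry no test. The FPKM of Cd14 over that of Tlr4 averaged 10.3 ± 0.245 over the 3 Ctrl libraries and 11.03 ± 0.367 over the 3 ZA libraries (SD), with all of ZA above all of Ctrl. The FPKM of Ly96 over that of Tlr4 averaged 1.22 ± 0.0499 over Ctrl and 1.13 ± 0.0341 over ZA, with all of ZA below all of Ctrl. Cd14 over Ly96 averaged 8.49 ± 0.507 over Ctrl and 9.78 ± 0.5003 over ZA, again without overlap. Cd14 and Ly96 had the largest differences of the 10, in opposite directions, so a gap in their ratio follows from the choice of the pair. It is no result beyond the values of each gene, neither of which passed the adjusted test. How many other pairs of genes separate as far was not counted.

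Of the 4 adaptors, Myd88 was the most abundant, with an FPKM of 41.2, 43.2 and 43.1 in Ctrl and of 42.8, 44.4 and 45.3 in ZA. Only ZA 2 and ZA 3 lay above the highest Ctrl library, and ZA 1 lay within the Ctrl range. The 3 Ctrl libraries averaged 42.5 ± 1.14 and the 3 ZA libraries 44.2 ± 1.29 (SD), which gave a log2 fold change of 0.06 with a 95% interval of -0.02 to 0.13 and an adjusted limma p of 0.519. The log2 fold change of Myd88 was 0.033 without Ctrl 1, 0.036 without ZA 3 and 0.077 without ZA 1. Its bridging adaptor Tirap was the least abundant of the 10, with an FPKM of 4.93, 4.87 and 5.02 in Ctrl and of 5.27, 4.81 and 5.02 in ZA. ZA 1 was the highest library and ZA 2 the lowest, so the ZA libraries enclosed all the Ctrl values, and without ZA 1 the direction turned, from a log2 fold change of 0.02 to -0.0060.

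On the other arm, Ticam2 (TRAM, which carries TRIF to the receptor in endosomes) had an FPKM of 19.1, 18.5 and 19.1 in Ctrl and of 20.1, 19.6 and 19.3 in ZA. All ZA libraries lay above all Ctrl libraries, by a narrow gap between ZA 3 and Ctrl. The 3 Ctrl libraries averaged 18.9 ± 0.340 and the 3 ZA libraries 19.6 ± 0.411 (SD), 4.09% higher, with a limma p of 0.0995 before and 0.488 after Benjamini-Hochberg adjustment. Ticam1 (TRIF, the adaptor that leads to interferon genes) had an FPKM of 12.9, 13.6 and 13.5 in Ctrl and of 13.6, 14.8 and 13.1 in ZA. ZA 2 was the highest library and ZA 3 lay below Ctrl 2 and Ctrl 3, so the groups overlapped, at a log2 fold change of 0.05 and an adjusted limma p of 0.706. That log2 fold change was 0.0045 without ZA 2, 0.026 without Ctrl 1 and 0.083 without ZA 3. The ratios Myd88 over Tirap, Ticam2 over Ticam1 and Myd88 over Ticam1 all overlapped between Ctrl and ZA.

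The kinases and the ubiquitin ligase downstream of MyD88 had log2 fold changes between -0.03 and 0.02, with overlapping groups for each. Irak4, the kinase that MyD88 binds first, had an FPKM of 16.0, 15.5 and 15.7 in Ctrl and of 15.6, 15.4 and 16.0 in ZA, with a log2 fold change of -0.01, a 95% interval of -0.08 to 0.06 and an adjusted limma p of 0.917. Irak1, the kinase that IRAK4 phosphorylates, had an FPKM of 32.4, 30.6 and 29.6 in Ctrl and of 30.5, 29.96 and 30.05 in ZA. The ZA libraries lay within the Ctrl range, Ctrl 1 was the highest, and without it the log2 fold change turned from -0.03 to 0.0045.

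Traf6, the ubiquitin ligase that follows the IRAKs, had an FPKM of 5.9997, 6.17 and 5.52 in Ctrl and of 5.92, 5.90 and 6.11 in ZA, all ZA values lying between Ctrl 3 and Ctrl 2. Its log2 fold change was 0.02 with an adjusted limma p of 0.907, and it turned to -0.022 without Ctrl 3. Map3k7 (TAK1, the kinase at which the NF-κB and MAP kinase branches part) had an FPKM of 10.3, 10.4 and 10.9 in Ctrl and of 10.4, 10.4 and 10.1 in ZA, with a log2 fold change of -0.03 and an adjusted limma p of 0.805. Ctrl 3 was the highest library and ZA 3 the lowest, and the log2 fold change was -0.0018 without Ctrl 3 and -0.014 without ZA 3. Irak1 over Irak4 and Map3k7 over Traf6 overlapped between the groups.

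**Figure D2:**
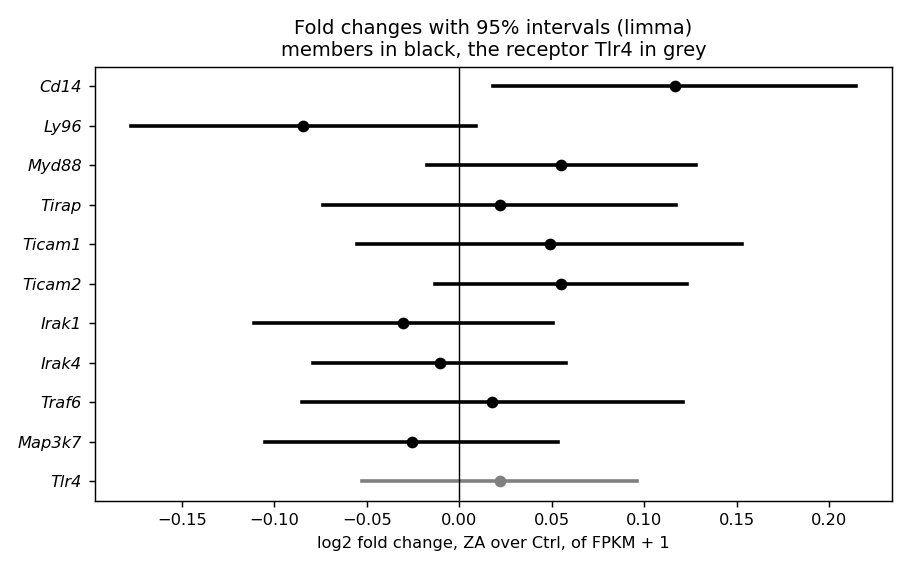
Log2 fold change of ZA over Ctrl on the scale of log2(FPKM + 1) (horizontal axis) for the 10 genes and, in grey, the receptor Tlr4, with dots for estimates and lines for 95% intervals from limma over 3 and 3 libraries. The interval of Cd14 lies above 0 before adjustment for the 9800 genes tested, and the intervals of the other 9 and of Tlr4 cross 0.

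The intervals describe the change of each transcript by the spread between these libraries, which may be technical, and before adjustment for the genes tested. The 95% intervals of the 10 reached from 11.6% lower (the low bound of Ly96) to 16.0% higher (the high bound of Cd14) on the scale of FPKM + 1, and those of the other 8 genes stayed between -7.41% and 11.2%. The standard errors of the log2 fold changes were 0.03 to 0.05. The intervals came with 559 to 16724 fragments per gene and library. Counting error alone was 0.816 to 4.09% of a value, against an SD between libraries of 0.944 to 6.49% of the group mean. A p above 0.05 does not show that a gene was level between the groups, and differences inside its interval remain possible for each gene.

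The levels themselves spanned a wide range and kept 1 order in both groups. Per length, Cd14 was the most abundant, followed by Myd88, Irak1, Ly96, Ticam2, Irak4, Ticam1, Map3k7, Traf6 and Tirap. Every neighbouring pair in that order was apart in Ctrl, the lowest library of the one lying above the highest library of the next. The mean FPKM of Cd14 in Ctrl was 42.2 times that of Tirap. Cd14 stood at the 97.5th percentile of level among the genes tested, Myd88 at the 86.8th and Tirap at the 32.5th. Among the adaptors Myd88 exceeded Tirap, which joins it to the receptor, and Ticam2 exceeded Ticam1, and among the kinases Irak1 exceeded Irak4.

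**Figure D3:**
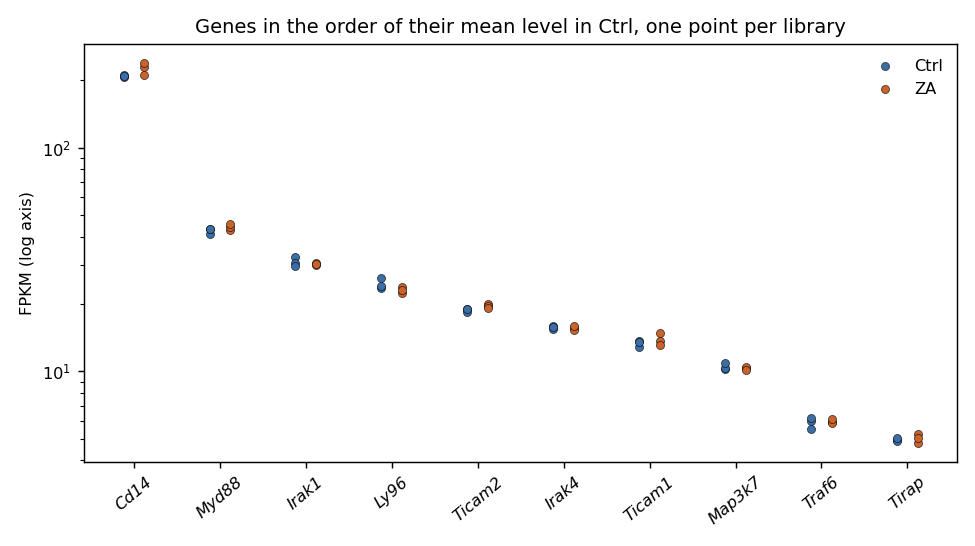
FPKM on a log axis (vertical) of the 10 genes, ordered from left to right by their mean in Ctrl, with 1 point per library, Ctrl in blue and ZA in orange. The order from Cd14 down to Tirap was the same in both groups, and the differences between genes were far larger than those between Ctrl and ZA.

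The start regions were read from RefSeq windows on build GRCm38.p6, which hold 250 bases before and 50 bases after each start site. Of the 10 genes 7 had one, with 9 windows in all. Cd14, Ly96 and Ticam2 had none, so the motif counts do not cover them. The submitters' notes name another build, mm9, with no annotation version, so the windows are given as sequence context and not as the place of a measurement. A motif of the interferon response type, TTTCNNTTTC on either strand, was in 1 of these 9 windows, that of Myd88, and in 3.44% of all 32851 windows. Its first base lay 40 bases before the start site. The 250 bases before the Myd88 start, chr9:119340019-119340268 on the minus strand, are printed 5′ to 3′ with the match in capitals because Myd88 is the shared adaptor of the arm.
Myd88: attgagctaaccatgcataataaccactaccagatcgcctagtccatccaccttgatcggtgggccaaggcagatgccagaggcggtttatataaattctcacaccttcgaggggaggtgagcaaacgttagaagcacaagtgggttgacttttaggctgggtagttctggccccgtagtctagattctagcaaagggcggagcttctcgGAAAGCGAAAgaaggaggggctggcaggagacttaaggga
A motif of the NF-κB type, GGGNNTTTCC on either strand, was in 1 of the 9 windows, that of Map3k7, and in 1.63% of all windows. Its first base lay 92 bases before the start site. The 250 bases before the Map3k7 start, chr4:31963857-31964106 on the plus strand, are printed with that match and an ets type match (GAGGAA on either strand) in capitals, since this kinase itself lies upstream of NF-κB.
Map3k7: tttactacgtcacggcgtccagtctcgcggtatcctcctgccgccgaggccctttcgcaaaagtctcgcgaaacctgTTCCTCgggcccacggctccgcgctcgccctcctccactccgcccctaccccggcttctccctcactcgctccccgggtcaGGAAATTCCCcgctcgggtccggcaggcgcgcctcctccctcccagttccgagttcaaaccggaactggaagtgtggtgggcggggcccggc
The ets type motif was in 3 of the 9 windows (Map3k7, Ticam1 and Traf6) and in 28.3% of all windows, the E-box CACGTG in 1 (Ticam1) and in 7.15%, and the AP-1 type motif TGANTCA in 0 of the 9 and in 7.81%. A match of letters is a description of the window and not a bound site.

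Likeness over the 6 libraries was taken as Pearson r of log2(FPKM + 1). The tested genes that ran most nearly with Cd14 were 9930111J21Rik1 (Pearson r 0.995), Derl1 (0.991) and Acod1 (0.990), and 258 genes had an r above 0.9. Acod1 encodes the enzyme that makes itaconate, and its FPKM in Ctrl was 0.937, 1.004 and 1.09, while the ZA libraries had 1.18, 2.25 and 2.59. As for Cd14, ZA 2 and ZA 3 held the high values. For Myd88 the nearest were Mplkip (0.995), Sh3bp1 (0.994) and Isg20 (0.991), with 251 genes above 0.9. These are likenesses over 6 points that share library and depth, and so many genes reach them that they single out none.

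The rest of the TLR4 pathway was read from lists that hold 97 genes besides the 10. Of these 96 were in the restored table and 81 were tested, and none passed limma with Benjamini-Hochberg adjustment, the smallest adjusted p being 0.0966. At an unadjusted p under 0.05, 12 of the 81 were higher in ZA and 9 lower, against a background of 7.5% higher and 4.85% lower. Among the components of the MyD88 arm, 2 of 22 tested were higher at that level, Peli2 (a ubiquitin ligase that acts on IRAKs, log2 fold change 0.14) and Mapk14 (p38α, 0.12), and 1 was lower, Map2k3 (a kinase of p38, -0.12). Irak3, the inactive IRAK that restrains the complex of the other IRAKs, had an FPKM of 12.9, 13.1 and 12.7 in Ctrl and of 14.3, 14.6 and 15.6 in ZA, a log2 fold change of 0.19 with an adjusted limma p of 0.0966. It was 1 of 4 inhibitors of 20 tested that were higher at the unadjusted level, with Ptpn6 (the phosphatase SHP-1, 0.11) among them, and 3 were lower, with Dusp1 (a MAP kinase phosphatase, -0.22) and Dok2 (an adaptor, -0.14) among them. Of the TRIF arm 1 of 13 tested was higher (Ikbke, 0.09) and 2 lower (Ripk3, -0.13, and Fadd, -0.11), and of the genes that handle lipopolysaccharide or the receptor 1 of 13 was higher (Unc93b1, 0.07) and 3 lower (Cd36, -0.13, Anxa2, -0.11, and Hsp90b1, -0.07).

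The genes that the pathway switches on were mostly too low to test on the MyD88 side, where 5 of 12 were tested. Of these 3, Tnf (log2 fold change 0.16), Nfkbia (0.09) and Nfkbiz (0.23), were higher at an unadjusted limma p under 0.05, against 7.5% of all genes tested. Among those not tested, Il1b had an FPKM of 0.81, 0.76 and 0.65 in Ctrl and of 0.92, 1.38 and 1.36 in ZA. Cxcl2 had 0.75, 0.73 and 0.66 in Ctrl and 0.94, 1.15 and 1.29 in ZA. These values rest on few fragments, 51 to 108 per library for Il1b and 30 to 59 for Cxcl2. Counting error alone was 11.4% of a value for Il1b and 15.5% for Cxcl2. How many other genes averaging an FPKM under 1 separate in this way was not counted. Il6, Cxcl1, Ptgs2, Il12b and Csf3, also not tested, overlapped between the groups. Of the outputs of the TRIF arm 9 of 12 were tested, all 9 with a log2 fold change above 0, against 56.9% of all genes tested. Their median was 0.26, in a range from 0.04 for Ccl5 to 0.48 for Ifit2. Except for Ccl5 they rose from library 1 to library 3 in both groups. Ifit2, for example, had an FPKM of 14.7, 19.2 and 23.5 in Ctrl and of 18.8, 26.0 and 39.0 in ZA. The 9 genes thus largely ran together over the libraries, so their shared direction does not count as 9 separate results. The source of that rise was not tested. Of the 9, 1, Irf7, had an unadjusted limma p under 0.05. Ifnb1 was not tested, with 1 fragment in ZA 2 and 0 in the other libraries. Irf7, a transcription factor of the interferon response, had an FPKM of 29.2, 34.7 and 38.8 in Ctrl and of 35.0, 46.7 and 58.3 in ZA, so ZA 1 lay within the Ctrl range here as for Myd88. Its log2 fold change was 0.42 with an adjusted limma p of 0.370. Without ZA 1 all 9 outputs of the TRIF arm had an unadjusted p under 0.05, without Ctrl 3 there were 3, and without any one of the other 4 libraries 0. A fit with the replicate block gave 7, although the numbers were not taken to pair the libraries, and voom on recovered fragments gave 3. The lists of receptor, MyD88 arm, TRIF arm and inhibitor genes had medians between -0.0021 and 0.03.

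**Figure D4:**
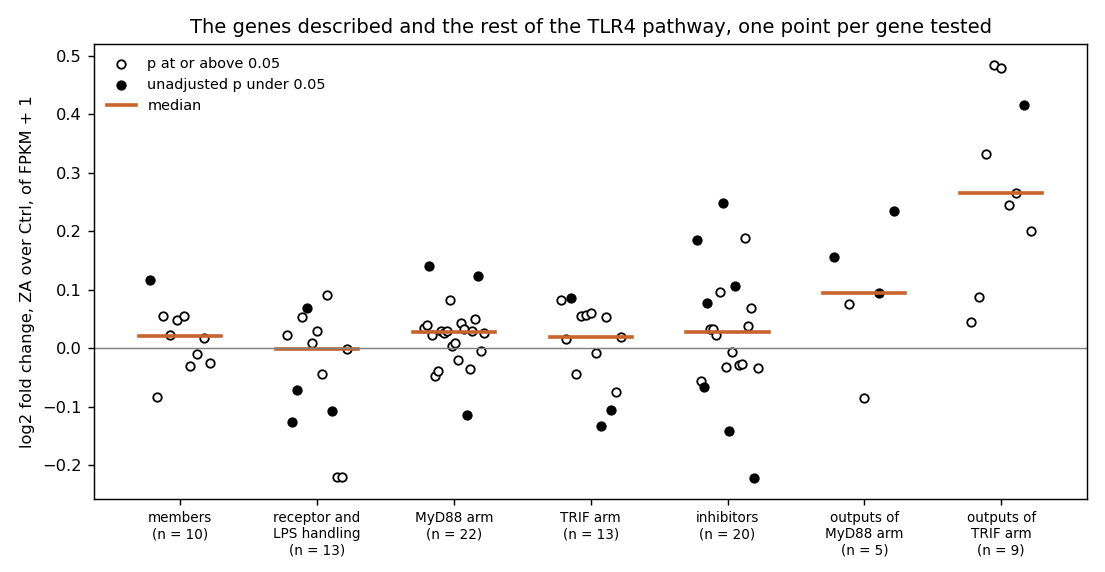
Log2 fold change of ZA over Ctrl on the scale of log2(FPKM + 1) (vertical axis), 1 point per gene tested, for the 10 genes and the 6 lists of other TLR4 pathway genes (horizontal axis). Filled points have an unadjusted limma p under 0.05 and orange lines are medians; the 10 genes and the arms' components lie around 0, and the 9 outputs of the TRIF arm all lie above 0, with none past an adjusted p of 0.05.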

How the data were processed

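RNA of 3 Ctrl and 3 ZA libraries of BMDMs was sequenced. The authors deposited 1 table of FPKM, whose symbol and 6 values run together in each row (submitters' processing notes name build mm9; aligner and counter are not given in the sources used here). Rows were cut where every value was a whole number of fragments for 1 gene length and the library totals. That restored 35425 of 35434 rows; 9 rows of very low values were left out. On 2000 simulated rows 1996 were restored exactly, 0 wrongly. No column lacked a sample.

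limma 3.58.1 (R 4.3.3) was fitted on log2(FPKM + 1), a scale that understates changes of low genes, for genes averaging an FPKM of 1 or more, using a variance trend and Benjamini-Hochberg adjustment over 9800 genes. On simulated data with 100 genes changed 1.25-fold and 100 changed 2-fold among 9800, all were called, with 10 unchanged genes. Each simulated gene had the spread typical of its level and no difference shared within a library. The real genes differ in spread, so the calls do not show what share of real changes would be found. Alternatives covered pseudocount, filter, scaling, variance prior, block, recovered fragments with voom, and leaving out each library. The 10 genes, the lists and the rule for named genes (at most 4 genes of each list with unadjusted p under 0.05, by size of the statistic) were chosen with earlier results of these data known. Sequences are from RefSeq.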

Additional observations from a re-analysis of the deposited data

How the results depend on the processing

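None of the 10 genes reached an adjusted p under 0.05 under any of the 14 alternatives, and the closest was Cd14 without ZA replicate 1 (adjusted limma p 0.0518, of a range over alternatives to 0.572). Of 139 values of the 10 genes under these alternatives 135 kept direction and side of the threshold. The other 4 turned when a library was left out: Irak1 to 0.0045 without Ctrl replicate 1 (range over left-out libraries from -0.058), Traf6 to -0.022 without Ctrl replicate 3 (to 0.047), Tirap to -0.0060 without ZA replicate 1 (to 0.049) and Irak4 to 0.00088 without ZA replicate 2 (from -0.025). Tirap could not be tested at a mean FPKM of at least 5. The number of the 10 with an unadjusted p under 0.05, 1 as reported, was 0 with no filter, 2 with libraries centred on the median (Cd14 and Ly96) and 0 to 2 when a library was left out. Their median log2 fold change was 0.0075 after centring and 0.0088 (without ZA replicate 1) to 0.027 when a library was left out.

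The number of all genes with an adjusted p under 0.05, 36 as reported (20 higher, 16 lower), was 1 with no filter, 20 with quantile normalization, 1 without a variance trend, 132 with voom on recovered fragments and 0 to 25 when a library was left out (0 without ZA replicate 2, where 973 had an unadjusted p under 0.05). The cause was not tested. Centring gave 11 higher and 18 lower, and quantile normalization 10 and 10. At an unadjusted p under 0.05 the split of 735 higher and 475 lower was 508 to 664 with centring and 574 to 589 with quantiles. With the replicate block 78 genes were called in all and none of the 10. With that block Cd14 had a limma p of 0.00938 before and 0.156 after adjustment. The same-number correlations of library deviations were 0.284, 0.0393 and 0.280, and those of unlike numbers ran from -0.2975 to 0.0334. Each library thus correlated best with its own number. The labels state no pairing, so the numbers were not taken to pair the libraries. Whether libraries of 1 number shared a source was not tested. Of the other pathway genes 12 were higher at an unadjusted p under 0.05 as reported, 20 with the block, and 8 to 22 when a library was left out (22 without ZA replicate 1).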
